A study of Mus musculus with 44 samples.

Results

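The genes described here form the route by which the cells around a mouse oocyte hold it in meiotic arrest: the C-type natriuretic peptide and its receptors, enzymes that supply and break down cyclic GMP, and the connexins of the follicle's gap junctions. They are the 8 genes Nppc, Npr2, Npr3, Impdh2, Pde5a, Gja1, Gja4 and Gjc1, chosen by gene symbol. All 8 have a row among the 22674 genes of the maturation table and among the 18274 genes of the ovulation table. RNA sequencing was done on ovarian follicles of wild-type CD-1 mice, an outbred laboratory strain, and 44 libraries were analysed. In the window of gonadotropin-dependent follicle maturation, 11 control libraries treated with the solvent DMSO were compared with 10 treated with PFNA (perfluorononanoic acid, a fluorinated surfactant). In the window of ovulation triggered by hCG (human chorionic gonadotropin), 12 controls given hCG were compared with 11 libraries given hCG and PFNA. The animals' age, the dose, the exposure times, and whether a library held 1 follicle or a pool are not given in the sources used here. Nothing in the labels says that libraries of a group came from separate animals or cultures, so the p-values measure the spread between these libraries, which may be technical.

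In a growing follicle, the mural granulosa cells secrete the C-type natriuretic peptide, which binds the receptor guanylyl cyclase NPR2 on cumulus and granulosa cells. The cyclic GMP made there passes through gap junctions into the oocyte, where it inhibits the phosphodiesterase PDE3A, keeps cyclic AMP high and holds meiosis in prophase. The ovulatory hormone signal lowers peptide and receptor activity and closes the gap junctions, and meiosis resumes.

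The genes lie on different chromosomes except Npr2 and Gja4, and their promoters run from 38.8% to 69.2% G and C. Of the 8 genes, 7 have an entry among 32851 mouse promoters from RefSeq (GRCm38.p6). The 250 bases before the start of Nppc, Npr2, Npr3 and Gja1 are printed because these are the ligand, the receptors and the connexin on which the ovulation results turn. Capitals mark matches to the motifs searched.
Nppc: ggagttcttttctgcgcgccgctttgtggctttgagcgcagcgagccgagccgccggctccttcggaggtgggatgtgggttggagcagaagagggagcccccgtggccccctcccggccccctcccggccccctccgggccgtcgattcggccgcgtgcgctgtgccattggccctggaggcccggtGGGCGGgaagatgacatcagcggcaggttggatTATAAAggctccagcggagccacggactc
Npr2: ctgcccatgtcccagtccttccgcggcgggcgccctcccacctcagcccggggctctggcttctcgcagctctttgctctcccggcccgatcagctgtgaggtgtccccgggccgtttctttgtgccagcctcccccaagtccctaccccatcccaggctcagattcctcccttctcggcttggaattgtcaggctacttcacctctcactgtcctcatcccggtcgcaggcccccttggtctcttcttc
Npr3: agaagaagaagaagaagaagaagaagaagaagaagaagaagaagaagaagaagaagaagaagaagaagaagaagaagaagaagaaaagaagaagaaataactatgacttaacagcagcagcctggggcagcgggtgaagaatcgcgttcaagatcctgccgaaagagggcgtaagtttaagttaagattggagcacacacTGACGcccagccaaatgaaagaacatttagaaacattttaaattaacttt
Gja1: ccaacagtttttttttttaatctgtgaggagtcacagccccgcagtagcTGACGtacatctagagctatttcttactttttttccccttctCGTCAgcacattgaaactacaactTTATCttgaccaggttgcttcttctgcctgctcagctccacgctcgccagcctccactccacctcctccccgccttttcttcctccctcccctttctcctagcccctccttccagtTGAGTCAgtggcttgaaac
They lie at chr1:86670574-86670823 (minus strand), chr4:43631685-43631934 (plus strand), chr15:11907372-11907621 (minus strand) and chr10:56377050-56377299 (plus strand), and all are read 5′ to 3′ towards the gene. The Nppc promoter is 69.2% G and C, against a median of 52.4% over all promoters. It holds a TATA box 29 to 24 bases before the start and a GC box 62 to 57 bases before it. Npr2 is at 64.4% G and C and holds none of the motifs. Npr3 stands at the other end, at 38.8%, with 9.7% of all promoters lower. It opens with an unbroken run of 97 purines, mostly a GAA repeat, and has a TGACG 50 to 46 bases before the start. In Gja1 an AP-1 match, TGAGTCA, lies 19 to 13 bases before the start, with TGACG on the minus strand at 159 to 155 bases and on the plus strand at 201 to 197 bases, and a GATAA on the minus strand at 135 to 131 bases.

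The 11 motifs were searched on both strands, and several overlap: TGACGTCA contains TGACG, and CAAGGTCA contains AGGTCA. Of all promoters of the same length, 1.55% hold the cAMP response element TGACGTCA, 17.8% its core TGACG, 6.75% the AP-1 site TGANTCA, 32.7% the GC box GGGCGG, and 12.4% the TATA box TATAAA. The other motifs were the RUNX site TGTGGT in 14%, the NR5A site CAAGGTCA in 1.33%, the nuclear receptor core AGGTCA in 14%, the heat shock repeat GAANNTTC in 6.69%, the GATA site GATAA in 22.6% and a sterol element TCACNNCAC in 3.11%. The promoters of Pde5a, Gja4 and Impdh2 each hold a GC box. A match describes letters in this window and is not a binding site.

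The maturation values were taken as TPM, which is scaled for gene length and library size, and the reads behind each value are unknown. The ovulation values are estimated counts, with library totals between 10.6 and 19.5 (in units of 1e+06 counts), given here as CPM, the count divided by the TMM-normalized library total in those units. The tables differ in unit and in gene models, so no level is compared across windows, and a sequencing batch cannot be told apart from the window. All 10 granulosa markers and all 16 oocyte markers have a row in both tables, which by itself does not test the tissue label. Some libraries stood apart in oocyte RNA. The summed level of the 16 oocyte markers lay between 185 and 295 TPM in the maturation controls. In the PFNA libraries of that window it was 7.04 to 17 TPM in replicates 3 to 9, 191 in replicate 1, 169 in replicate 2 and 448 in replicate 10. In the ovulation window PFNA replicate 5 had a sum of 30.9 CPM, and the other 10 PFNA libraries had 254 to 697. The ovulation controls ran from 123 to 550 CPM, where replicates 2 and 7 had 503 and 550 and the next had 226. Those 2 controls thus lay within the range of the PFNA libraries.

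In maturation, PFNA libraries had less Nppc, Npr2 and Gja4 RNA and more Pde5a RNA than controls. The limma test called 4 of the 7 genes it covered at an adjusted p under 0.05, with 1 higher and 3 lower, where 29.4% of 13712 genes tested were called, 13.3% higher and 16.1% lower. In ovulation the signs were the opposite for Nppc, Npr2, Gja4 and Pde5a. The edgeR quasi-likelihood test called 8 of 8 there, 5 higher and 3 lower, where 73.2% of 13441 genes were called, 38.0% higher and 35.2% lower. The share called among the 8 genes in ovulation is thus read against a background in which most genes were called. The median log2 fold change was -0.15 over the 7 genes tested in maturation and 0.36 over the 8 in ovulation, beside 0.02 and 0.04 over all genes tested.

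**Figure D1:**
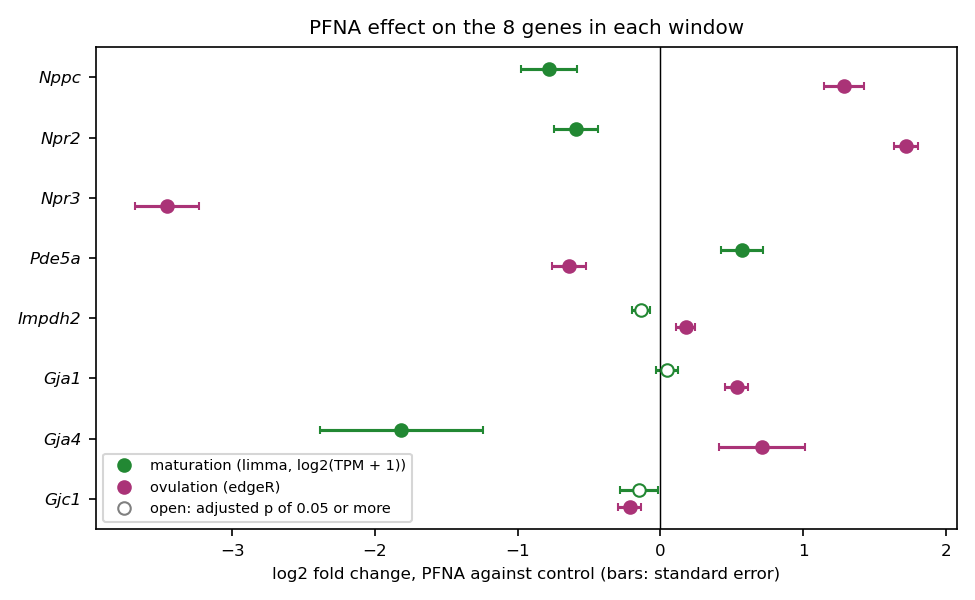
Log2 fold change of PFNA against control for the 8 genes (vertical axis) in the maturation window (limma, log2(TPM + 1)) and the ovulation window (edgeR), with bars for the standard error and filled points for an adjusted p under 0.05. Nppc runs from -0.78 to 1.29 and Npr2 from -0.59 to 1.72, Npr3 has no maturation point, and its ovulation point is the lowest at -3.46.

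Nppc, which encodes the peptide, lies at chr1:86666291-86670571 (GRCm38, minus strand). In the maturation controls it ranged from 142 to 516 TPM with a median of 288, and in the PFNA libraries from 105 to 266 with a median of 168. The groups overlapped, but 7 of 11 controls lay above every PFNA library. The means were 301 ± 112 TPM (SD, n = 11) and 169 ± 46.4 (SD, n = 10). This is a change of -0.78 in log2 units (SE 0.20, limma adjusted p = 0.00492). With an oocyte marker score as a covariate it was -0.88 with a larger SE of 0.30, and not called (limma adjusted p = 0.0746). Most PFNA libraries of this window had low oocyte marker sums, so the score and the treatment overlap and cannot be fully told apart. In the ovulation controls Nppc ranged from 8.05 to 14.1 CPM with a median of 10.2, and in the PFNA libraries from 14.5 to 36.6 with a median of 23.9. All 11 PFNA libraries lay above every control. The mean was 2.45 times as high, and the fitted log2 change 1.29 (SE 0.14, edgeR adjusted p = 9.42e-09). In bulk samples such as these, fewer cells of a type and less RNA per cell cannot be told apart.

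Npr2, the receptor that makes cyclic GMP when it binds the peptide, lies at chr4:43631935-43651244 (plus strand). It moved in the same directions as Nppc. In maturation the controls ranged from 160 to 238 TPM with a median of 204, and the PFNA libraries from 54.9 to 173 with a median of 146. Of the 10 PFNA libraries, 7 lay below every control. In log2 units the change was -0.59 (SE 0.15, limma adjusted p = 0.0066), and it was -0.45 without PFNA replicate 10, which held the lowest value. In ovulation the controls ranged from 95.7 to 139 CPM with a median of 115, and the PFNA libraries from 280 to 493 with a median of 357. The groups were far apart: the lowest PFNA library was above the highest control, and the ratio of means was 3.3. Npr2 rose by 1.72 in log2 units (SE 0.08, edgeR adjusted p = 2.78e-15). The 266 exon bases that Npr2 shares with the antisense gene Gm12473 could hold reads of either gene, since strand use in counting is not given in the sources used here.

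Npr3 encodes the clearance receptor, which binds natriuretic peptides, takes them up and makes no cyclic GMP. It lies at chr15:11839896-11907287 (minus strand) and shares 321 exon bases with a noncoding gene on the opposite strand. Those bases could hold reads of either gene. Npr3 changed the most of the 8 genes in the ovulation window. It was the lowest of them in the maturation controls, at rank 16401 of 22674 genes by mean TPM. In the ovulation controls it ranged from 11.9 to 36 CPM with a median of 20.1, and in the PFNA libraries from 0.887 to 3.3 with a median of 1.84. The groups did not overlap, and the counts behind these values were 159 to 441 per control library and 10 to 52 per PFNA library. The mean was 11.1 times lower with PFNA, or -3.46 in log2 units (SE 0.22, edgeR adjusted p = 7.02e-13). In maturation the controls averaged 0.338 ± 0.326 TPM (SD, n = 11) and the PFNA libraries 0.316 ± 0.339 (SD, n = 10), under the minimum mean of 1 TPM for the test. The controls ranged from 0.0304 to 1.01 TPM with a median of 0.244, and the PFNA libraries from 0.0163 to 1.24 with a median of 0.246, so the groups overlapped. With no minimum the change was -0.02 in log2 units (SE 0.13, limma adjusted p = 0.932). In ovulation Npr3 thus moved against Nppc and Npr2, and no maturation change was detectable at this level.

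**Figure D2:**
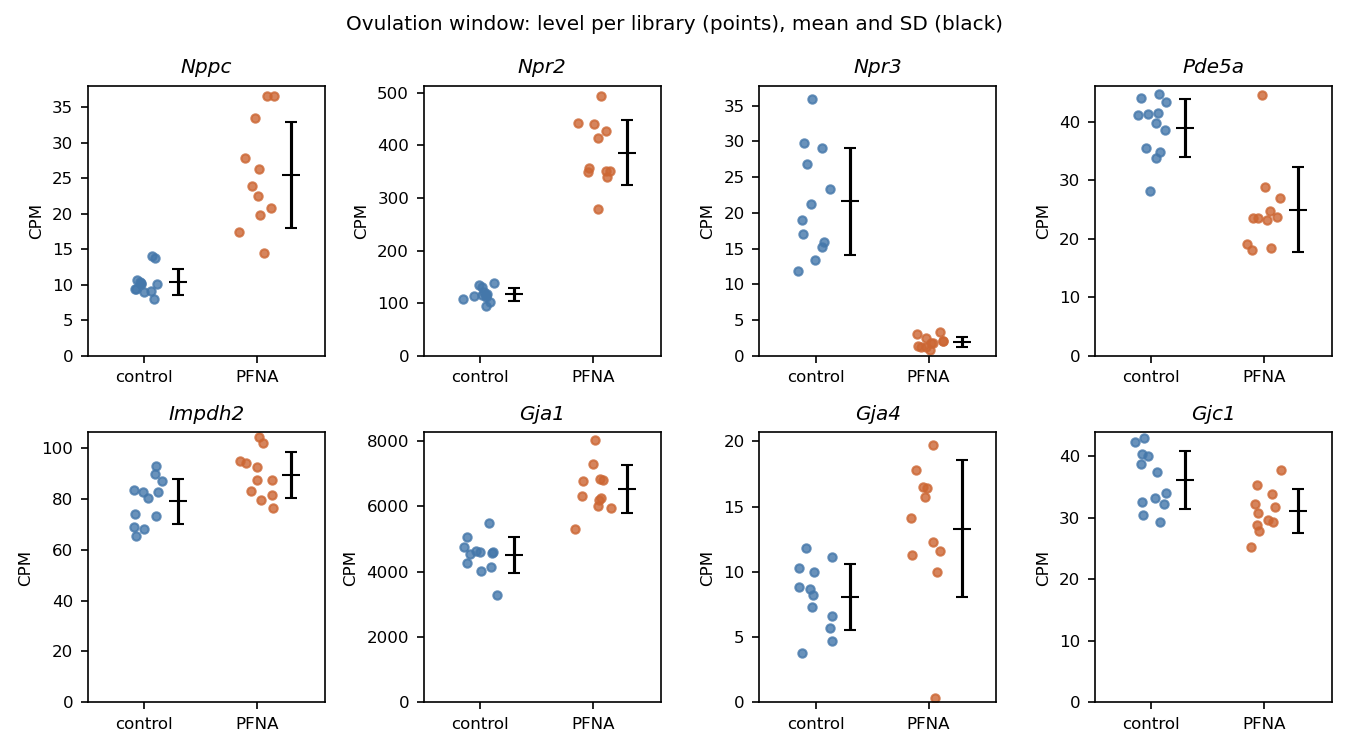
Level of each of the 8 genes in the ovulation window in CPM (vertical axes, from 0), 1 point per library, with black bars for the mean and SD of 12 controls and 11 PFNA libraries. Nppc, Npr2 and Npr3 separate fully, and a single PFNA library lies near 0 for Gja4 (0.357 CPM).

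Impdh2 encodes inosine monophosphate dehydrogenase, which makes the guanine nucleotides from which cyclic GMP is built. It lies at chr9:108560286-108565584 (plus strand) and shares 48 exon bases with Ndufaf3 on the opposite strand, where reads of either gene cannot be told apart. In maturation it ranged from 97.4 to 121 TPM in controls (median 104) and from 83.7 to 126 with PFNA (median 94.4). The groups overlapped, and the change of -0.14 in log2 units (SE 0.06) missed the threshold (limma adjusted p = 0.108). Without PFNA replicate 10, the highest library, it was -0.18 and passed (limma adjusted p = 0.0129), as it did with median-ratio scaling (-0.17, limma adjusted p = 0.019). In ovulation it ranged from 65.2 to 92.7 CPM in controls (median 81.5) and from 76.3 to 104 with PFNA (median 87.4). This was the smallest change of the 8 genes in that window, 0.18 in log2 units (SE 0.07, edgeR adjusted p = 0.0199), with overlapping groups.

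Pde5a encodes a phosphodiesterase that breaks down cyclic GMP. It lies at chr3:122728947-122859374 (plus strand) and shares 55 exon bases with a gene on the opposite strand. Those bases could hold reads of either gene. The direction of Pde5a was the reverse of Nppc and Npr2 in both windows. In maturation it ranged from 1.19 to 2.18 TPM in controls (median 1.6) and from 1.72 to 6.85 with PFNA (median 2.77). Of the 10 PFNA libraries, 7 lay above every control, and replicate 10 was the highest. Pde5a rose by 0.57 (SE 0.14, limma adjusted p = 0.005) on log2(TPM + 1), a scale that shrinks the difference for a gene this low: the means, 1.65 and 3.1 TPM, had a ratio of 1.88. In ovulation it ranged from 28.2 to 44.8 CPM in controls (median 40.5) and from 18.1 to 44.6 with PFNA (median 23.6). Of the 11 PFNA libraries, 9 lay below every control, and replicate 6, at 44.6 CPM, was within the controls' range. In log2 units it fell by 0.64 (SE 0.12, edgeR adjusted p = 3.42e-05).

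Gja1 encodes the connexin that joins granulosa cells to each other. It lies at chr10:56377330-56402513 (plus strand) and had rank 38 by mean TPM of the 22674 genes in the maturation controls. In maturation it ranged from 2130 to 3150 TPM in controls (median 2830) and from 2180 to 3310 with PFNA (median 2800). These ranges nearly coincide. The difference was 0.05 in log2 units (SE 0.08, limma adjusted p = 0.688). In ovulation it ranged from 3290 to 5490 CPM in controls (median 4580) and from 5290 to 8020 with PFNA (median 6300). Of the 11 PFNA libraries, 10 lay above every control. The ratio of means was 1.45, and Gja1 rose by 0.54 in log2 units (SE 0.08, edgeR adjusted p = 1.51e-06).

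Gja4 encodes the connexin of the junctions between the oocyte and the surrounding granulosa cells. It lies at chr4:127311421-127314039 (minus strand). Its values were widely spread, and its result moved with the oocyte markers. In maturation it ranged from 18.6 to 116 TPM in controls (median 42.4) and from 1.26 to 84.3 with PFNA (median 8.64). Of the 10 PFNA libraries, 6 lay below every control, while replicates 7 and 10, at 77.2 and 84.3 TPM, were among the high controls. In log2 units the change was -1.82 (SE 0.57, limma adjusted p = 0.0206). Without replicates 1, 2 and 10, whose oocyte marker sums were the highest of the PFNA libraries, it was -2.22 (limma adjusted p = 0.00517). The oocyte markers fell beside it: of the 16, 14 were tested and all 14 were called lower by limma. Ddx4, a defining marker too low to be tested, averaged 0.101 TPM in controls and 0.04 TPM with PFNA. The match was not complete in either direction. Replicate 7 had 77.2 TPM of Gja4 at an oocyte marker sum of 7.04 TPM and replicate 3 had 24.5 TPM at a sum of 13.3, whereas replicate 2 had 5.3 TPM of Gja4, below every control, at a sum of 169.

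In ovulation Gja4 ranged from 3.81 to 11.8 CPM in controls (median 8.45) and from 0.357 to 19.7 with PFNA (median 14.1). Of the 11 PFNA libraries, 7 lay above every control and replicate 5, with 5 counts, lay below every control. Gja4 rose by 0.71 in log2 units (SE 0.30, edgeR adjusted p = 0.0383), and without replicate 5 it was 0.84 (edgeR adjusted p = 9.61e-05). Replicate 5 was also the library with an oocyte marker sum of 30.9 CPM. The median sum was 150 CPM in controls and 363 with PFNA, and 8 of the 15 oocyte markers tested were called higher and 0 lower, where 38.0% of all genes were higher. With an oocyte marker score as a covariate the log2 fold change of Gja4 was -0.51 in maturation (limma adjusted p = 0.713) and -0.28 in ovulation (edgeR adjusted p = 0.334), neither called. Leaving out any 1 of 5 controls (replicates 1, 4, 8, 9 and 10) or of 6 PFNA libraries (replicates 1, 3, 4, 8, 9 and 10) also ended the ovulation call, at 0.64 to 0.70 in log2 units (edgeR adjusted p from 0.0509 to 0.0701).

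**Figure D3:**
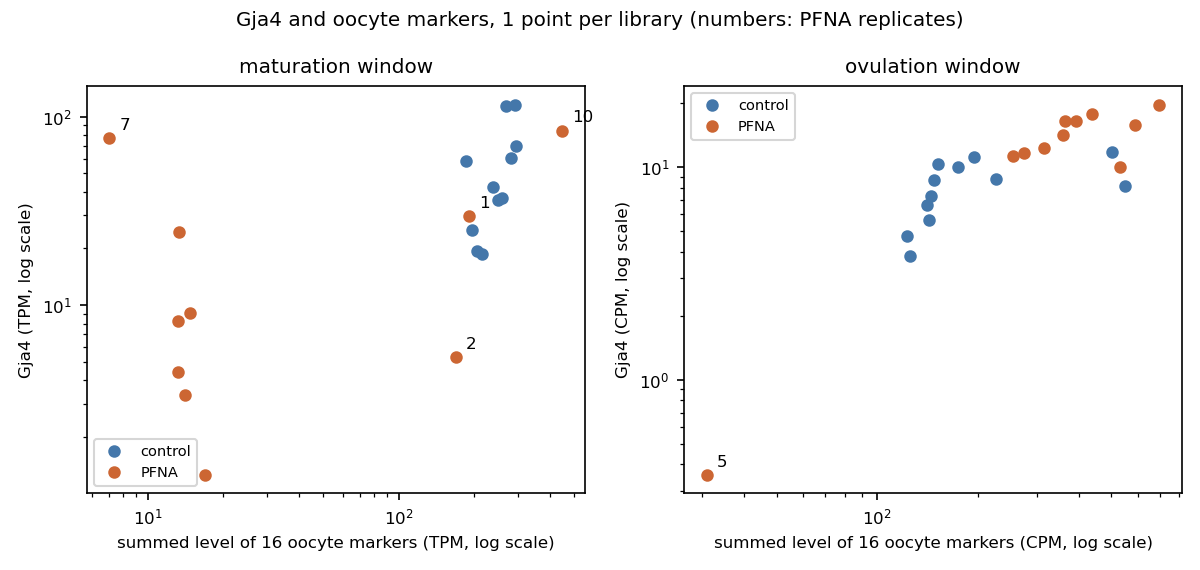
Gja4 level (vertical axis, log scale) against the summed level of 16 oocyte markers (horizontal axis, log scale) for each library, in TPM for the maturation window and CPM for the ovulation window, with PFNA replicates that stand apart numbered. Maturation PFNA replicate 7 keeps 77.2 TPM of Gja4 at a marker sum of 7.04 TPM, and ovulation PFNA replicate 5 lies lowest in both measures.

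Gjc1 encodes a further connexin of the granulosa layers. It lies at chr11:102799579-102819700 (minus strand). In maturation it ranged from 6.96 to 15.6 TPM in controls (median 11.9) and from 7.55 to 16.5 with PFNA (median 10). The groups overlapped almost completely (log2 fold change -0.15, SE 0.13, limma adjusted p = 0.428). In ovulation it ranged from 29.3 to 43 CPM in controls (median 35.8) and from 25.3 to 37.8 with PFNA (median 30.8). The change of -0.22 in log2 units (SE 0.08) passed the test (edgeR adjusted p = 0.0154). Of the 12 controls, 5 lay above every PFNA library, and 3 of 11 PFNA libraries lay below every control.

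**Figure D4:**
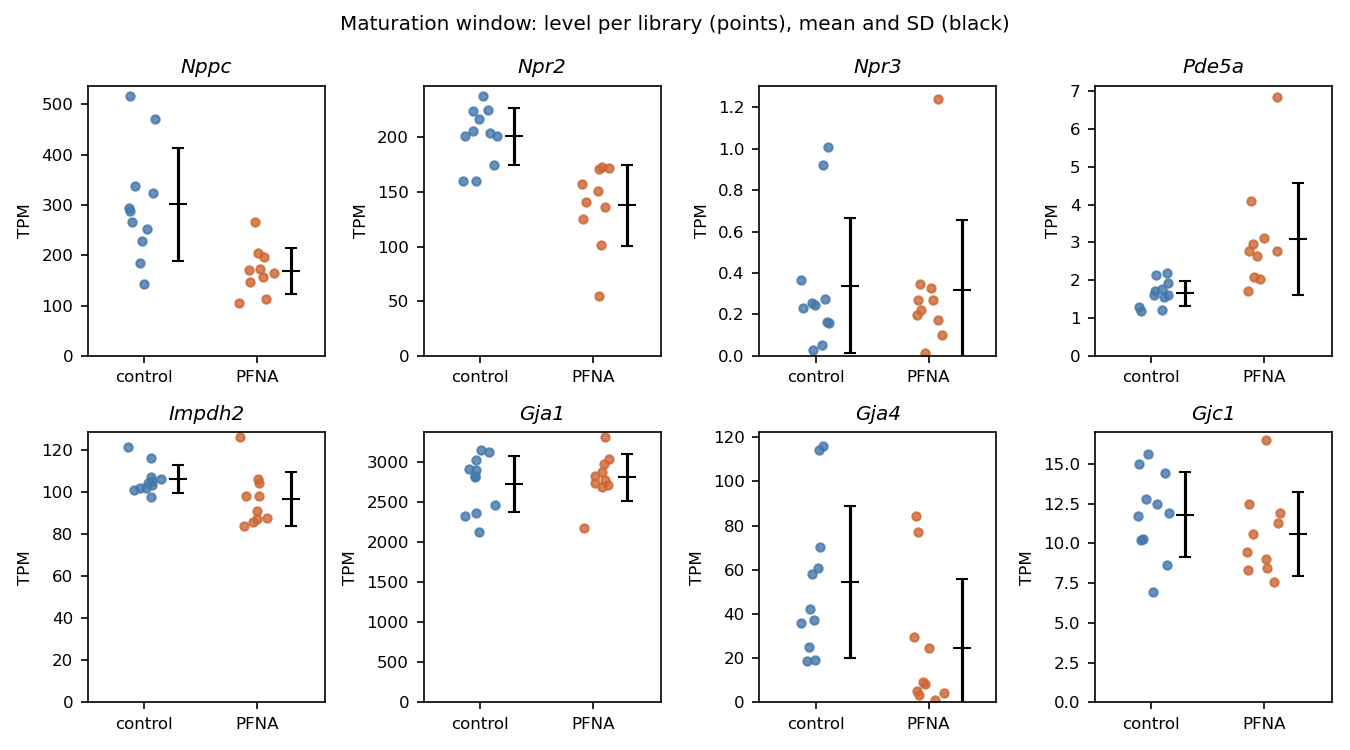
Level of each of the 8 genes in the maturation window in TPM (vertical axes, from 0), 1 point per library, with black bars for the mean and SD of 11 controls and 10 PFNA libraries, ending at 0 where the SD reaches past it. Every gene's groups overlap, and for Npr2 and Pde5a 7 of 10 PFNA libraries lie outside the controls' range.

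None of the 8 genes had groups that did not overlap in maturation, where 1.28% of genes tested did. In ovulation 3 did (Nppc, Npr2 and Npr3), where 26.0% of genes tested did. The difference of the PFNA effects (ovulation minus maturation) was called by limma for 6 of the 7 genes tested in both windows, 5 higher and 1 lower, where 67.7% of 11215 genes were called, 32.0% higher and 35.6% lower. It was 1.96 on the log2 scale for Nppc (SE 0.24, limma adjusted p = 3.73e-09), 2.29 for Npr2 (SE 0.17, limma adjusted p = 4.66e-13) and 2.30 for Gja4 (SE 0.66, limma adjusted p = 0.00249). Pde5a was the one with the opposite sign, at -1.22 (SE 0.18, limma adjusted p = 1.92e-07). The difference was 0.49 for Gja1 and 0.31 for Impdh2 (limma adjusted p = 1.08e-04 and 0.0025). For Gjc1 it was -0.06 (SE 0.15, limma adjusted p = 0.759), so its 2 effects did not differ detectably.

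Per length of gene, with the maturation values taken as TPM, Gja1 stood far above the others in every group. Its mean was 2730 TPM in the maturation controls and 439 CPM per kb of exon in the ovulation controls. In the maturation controls Nppc (301 TPM) and Npr2 (201 TPM) followed with overlapping ranges, then Impdh2 and Gja4, then Gjc1, Pde5a and Npr3, the last at 0.338 TPM. The ovulation lengths are exon bases of GENCODE M21, not of the gene models behind those counts. For Gja1 the ovulation model ends at 56390419, against 56402513 in GENCODE. The CPM per kb and the order of close genes are therefore approximate. In the ovulation controls Impdh2 (25.6 CPM per kb) and Npr2 (25.1) had overlapping ranges, and Nppc was at 9.98. With PFNA in ovulation the order of these changed: Npr2 rose to 82.7 CPM per kb, above Impdh2 at 29 and Nppc at 24.5, and Npr3 fell from 2.3 to 0.208. Between Gjc1, Gja4 and Pde5a in the ovulation controls, neighbouring ranges overlapped.

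The other genes of the route were read from lists by function. Their counts stand beside the shares over all genes tested, which were 13.3% higher and 16.1% lower in maturation, and 38.0% higher and 35.2% lower in ovulation. Among peptides, other receptors and peptide-processing proteases, 2 of the 4 genes tested in maturation were higher and 0 lower. Furin, a protease that processes natriuretic peptide precursors, had a log2 fold change of 0.39 (limma adjusted p = 0.0167), and Mme, the membrane protease neprilysin, of 0.54 (limma adjusted p = 0.0337). The Mme call was lost without any 1 of 4 controls (replicates 3, 6, 9 and 11) or 6 PFNA libraries (replicates 3, 4, 6, 7, 8 and 10), at 0.44 to 0.53. In ovulation 3 of 5 were higher and 2 lower, a count near what the 73.2% of all genes called there would give. Npr1, the receptor for atrial and brain natriuretic peptides, fell from 250 to 13.4 CPM, a log2 fold change of -4.22 (edgeR adjusted p = 1.33e-12), with each of the 11 PFNA libraries under the controls' range. Furin fell from 362 to 95.7 CPM, a log2 fold change of -1.92 (edgeR adjusted p = 1.14e-14).

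Among enzymes of guanine nucleotide supply, soluble guanylyl cyclase subunits and cyclic GMP-dependent kinases, 1 of 5 tested in maturation was lower and 0 higher. That gene was Impdh1, the partner of Impdh2, at a log2 fold change of -0.67 (limma adjusted p = 6.57e-06), whereas Impdh2 itself missed the threshold. In ovulation 5 of 8 were higher and 2 lower, also near the 73.2% called over all genes. Prkg2, a cyclic GMP-dependent kinase, fell from 24.9 to 3.9 CPM (log2 fold change -2.67, edgeR adjusted p = 2.61e-10). Gucy1a1, a subunit of soluble guanylyl cyclase, rose from 26.3 to 66.3 CPM (log2 fold change 1.34, edgeR adjusted p = 7.31e-08).

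Among the other phosphodiesterases that act on or belong to the cyclic GMP system, 0 of 2 tested were called by limma in maturation, where 0 also had an unadjusted p under 0.05, and 6 of 9 were higher and 3 lower in ovulation, where 73.2% of all genes were called. Pde1b and Pde11a had log2 fold changes of 1.54 (edgeR adjusted p = 4.08e-07) and 1.30 (edgeR adjusted p = 1.20e-05). Of other connexins, Gjb2 rose by 1.40 on the log2 scale (edgeR adjusted p = 0.00752), at 1 to 79 counts per library.

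Among genes of oocyte arrest and the meiotic cell cycle, 11 of 14 tested were lower and 1 higher in maturation, where 16.1% of all genes were lower, with a median log2 fold change of -1.25. Cdc25b, a phosphatase that activates cyclin-dependent kinase, had a log2 fold change of -1.46 (limma adjusted p = 1.63e-06), and Cdk1, that kinase, of -1.63 (limma adjusted p = 1.27e-05). In ovulation 10 of 15 were higher and 4 lower, beside 38.0% and 35.2% of all genes, with a median of 0.69. Ccnb2, a cyclin that partners Cdk1, rose by 2.17 (edgeR adjusted p = 2.85e-10), and Pkmyt1, a kinase that inhibits Cdk1, by 1.75 (edgeR adjusted p = 2.90e-09). Cdk1 itself was at -0.003 there and not called (edgeR adjusted p = 0.983). The oocyte marker sums given above fell and rose in the same windows. With the oocyte marker score as a covariate, Cdc25b was at -0.98 (limma adjusted p = 0.00437) and Cdk1 at -1.05 (limma adjusted p = 0.0274) in maturation. In ovulation Ccnb2 was at 1.86 (edgeR adjusted p = 5.40e-10) and Pkmyt1 at 1.47 (edgeR adjusted p = 3.42e-08), and all 4 were still called. In bulk RNA, changes in the oocyte and in other cells of the follicle cannot be told apart here. The part of oocyte RNA in these changes was not tested.

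**Figure D5:**
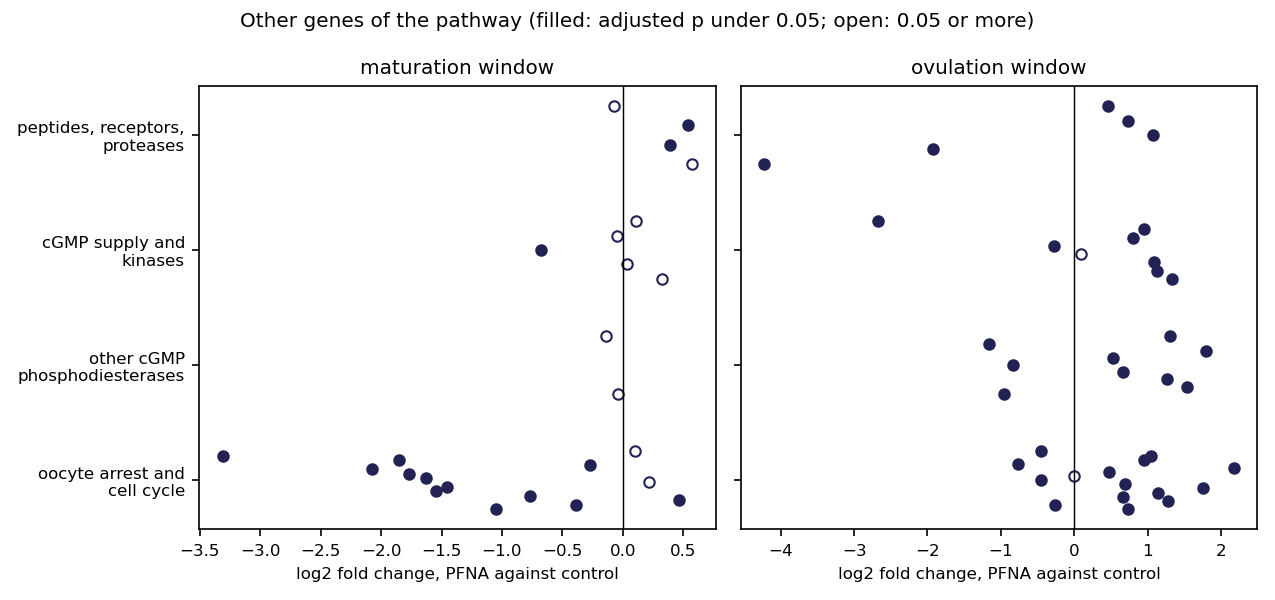
Log2 fold change of PFNA against control (horizontal axis) of each tested gene in 4 lists of the pathway, in the maturation and ovulation windows, with filled points for an adjusted p under 0.05. The list of oocyte arrest and cell cycle genes lies mostly below 0 in maturation (median -1.25) and above 0 in ovulation (median 0.69). Npr1 is the lowest point in ovulation at -4.22.

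Other cell types were measured beside the 8 genes, and their counts too are read against the 29.4% of all genes called in maturation (16.1% lower) and the 73.2% called in ovulation (38.0% higher). The granulosa markers summed to 36100 to 57900 TPM in the maturation controls and 15200 to 43800 with PFNA, with 6 of 10 called lower and 0 higher. Inha alone averaged 34970 TPM in those controls, so the sum mostly follows that gene. The 4 markers not called included Foxl2 and Amhr2 (limma adjusted p = 0.0904 and 0.607). In ovulation the sums were 12500 to 19400 CPM in controls and 11200 to 17700 with PFNA, with 7 of 10 called higher and 2 lower. Those 2 were Inha and Inhba, which averaged 7352 and 6698 CPM in controls and made up most of the sum. The 5 endothelial markers were all called higher in ovulation, with sums of 30 to 110 CPM in controls and 39.1 to 319 with PFNA. In maturation 0 of 3 tested were called by limma, or had an unadjusted p under 0.05, with sums of 3.59 to 47.3 TPM in controls and 7.89 to 50.4 with PFNA. The theca marker sums in ovulation were 59.9 to 289 CPM in controls and 146 to 351 with PFNA, with 3 of 6 called higher and 1 lower. In maturation they were 219 to 847 TPM and 118 to 472, with 1 of 5 tested called higher and 1 lower. Of the immune markers, 1 of 1 tested in maturation and 1 of 4 tested in ovulation were called higher. Their maturation sums were 2.12 to 16.1 TPM in controls and 5.88 to 28.5 with PFNA, where Cd52 averaged under 0.1 TPM in both groups. Their ovulation sums were 1.35 to 32.9 CPM in controls and 2.61 to 46.1 with PFNA. The part of these cell types in the changes of the 8 genes was not tested.

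The genes most like each of the 8 were found by correlating log2 values, less the group mean, over 21 maturation and 23 ovulation libraries and taking the mean of both correlations among 11215 genes. Ovulation depth and the oocyte marker sums differed between libraries, which can move many genes together, so the values are descriptive. Gja4 was most like AU022751 (mean r 0.85) and Omt2b (0.84), and Pde5a most like Osbpl8 (0.84) and Sh3rf1 (0.81). Gja1 followed Arhgap18 (0.76) and Sun1 (0.75), Npr2 followed Srebf1 (0.72) and Pcyt2 (0.69), and Impdh2 followed Vars (0.72) and Idh2 (0.71). The likeness was weaker for Nppc, with Rhobtb3 (0.64) and Hao2 (0.61), and for Gjc1, with Pim1 (0.56) and Plekho1 (0.53).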

How the data were processed

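Values were used as deposited. The maturation values the authors deposited sum to 1000000 in each library and were taken as TPM. That sum shows scaling to library size but does not by itself show scaling to gene length. The values the authors deposited for ovulation are estimated counts, and these were rounded to whole numbers. Partek, Bowtie2 and HISAT2 are named, per the submitters' processing notes, with no role or version. The genome build is not given in the sources used here, and the positions of the 8 genes in the maturation table equal those of GENCODE M21 on GRCm38. Table columns were matched to sample titles. The column taken as maturation control replicate 6 differs from its title by a letter, and maturation control replicate 4 was not analysed here.

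For maturation, limma 3.58.1 with trend and robust options was run on log2(TPM + 1), leaving out genes that averaged under 1 TPM. Ovulation was tested with edgeR 4.0.16 in R 4.3.3 (filterByExpr, TMM, robust quasi-likelihood), and its standard error is the fold change over the root of F. The difference between windows used limma on log2 values in each table with Satterthwaite degrees of freedom. All tests were two-sided, with Benjamini-Hochberg adjustment over all genes tested and a threshold of 0.05. The tests were checked on simulated data. No library was a copy of another: the lowest chi-square per degree of freedom between ovulation libraries of a group was 7.54, and the highest correlation between maturation libraries was 0.981. The named genes are the 8, the 2 called genes of smallest p per list and window, and the 2 genes most like each of the 8. A few others (Ddx4, Cd52, Inha, Inhba, Foxl2, Amhr2, Gm12473, Ndufaf3) were named after their values were seen. Counts over a further list, of other connexins, are not reported here. The genes and lists were chosen with earlier results of these data known. Alternatives covered the pseudocount, filters, normalization, DESeq2 1.42.0, limma on CPM, an oocyte score covariate, a replicate block and leaving out libraries.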

Additional observations from a re-analysis of the deposited data

Results flagged for a closer look

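Among the 10 PFNA libraries of the maturation window, replicate 10 lay far from the others in 4 of 14 results searched. A gap of over 0.466 of the group's range to the next library marks such a value. At about 1 in 20, chance would mark 0.7 of 14 independent, normally spread results, in any of the 10 libraries. The results are correlated (Pde5a and Impdh2, r 0.59 in maturation), so 4 against 0.7 is not a test. In replicate 10, Npr3 was 1.24 TPM (next 0.349) and Pde5a 6.85 TPM (next 4.09). Its Impdh2 was 126 TPM (next 106) and its oocyte marker sum 448 TPM (next 191). It also held the lowest Npr2 (54.9 TPM) and the lowest granulosa marker sum (15200 TPM). Without it, the log2 fold change of Pde5a in maturation was 0.46 and that of Npr2 was -0.45, both still called by limma (adjusted p = 0.00349 and 0.00154).

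The PFNA effect differed between the windows, by limma's test of the difference, for 6 genes. The difference (ovulation minus maturation, log2) was 1.96 for Nppc, 2.29 for Npr2, -1.22 for Pde5a, 0.31 for Impdh2, 0.49 for Gja1 and 2.30 for Gja4. Of all genes tested in both windows, 67.7% were called in that comparison.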

How the results depend on the processing

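The ovulation calls of Nppc, Npr2, Npr3, Pde5a, Gja1 and Gjc1 held under all 29 alternatives run, and the maturation calls of Npr2 and Pde5a under all 30 and 29. With the oocyte marker score as a covariate in maturation, 960 genes were called (481 higher, 479 lower) in place of 4030, and 2 of the 8 genes in place of 4. There Nppc was -0.88 (SE 0.30 in place of 0.20, limma adjusted p = 0.0746), Impdh2 0.085, Gja1 -0.13 and Gjc1 0.19. The score overlaps with the treatment in that window, so the 2 cannot be fully told apart. The same covariate turned Gja4 in ovulation to -0.28 and took the difference between windows to 0.38 for Gja4 and 0.10 for Impdh2, neither called; the cause was not tested.

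Replicate numbers did not pair the libraries: deviations correlated between -0.2 and 0.19 over 9 maturation pairs and between -0.21 and 0.093 over 11 ovulation pairs, and 0 and 0 PFNA libraries correlated best with their own number. With a replicate block, Gja1 in maturation was -0.021, Gja4 lost its call in maturation (-1.57, limma adjusted p = 0.125) and ovulation (0.67, edgeR adjusted p = 0.176), and 2895 and 9333 genes were called.

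Leaving out 1 library at a time gave 3586 to 4588 genes and 4 to 5 of the 8 called in maturation, 9654 to 10030 and 7 to 8 in ovulation, and 7482 to 7686 and 6 for the difference. Gja4 in ovulation ran from 0.64 to 0.84 and lost its call in 11 of 23 of these, as given above, with no filter (0.68) and with limma on CPM (0.49, limma adjusted p = 0.174). Mme in maturation lost it in 10 of 21. Impdh2 in maturation was called with median-ratio scaling (-0.17, limma adjusted p = 0.019), and in ovulation was not with no filter (0.14, edgeR adjusted p = 0.0649). Furin and Mme in maturation and Gjb2 in ovulation were not called with the covariate or the block (Mme 0.29 and 0.48, limma adjusted p = 0.521 and 0.164). The difference for Gjc1 ran from -0.10 to 0.0136 when leaving out 1 library (above 0 without maturation control replicate 5 or PFNA replicate 1), was 0.0374 without maturation PFNA replicates 1 and 2, and was -0.40 with the covariate (SE 0.19, limma adjusted p = 0.0755). With no filter 12190 genes were called in ovulation. The depth of the maturation libraries is unknown, which limits Npr3 there.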
